A study of Mus musculus with 9 samples.

Results

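Spironolactone was compared with vehicle in myeloid cells sorted from the quadriceps of *mdx* mice. The comparison takes 6 of the 9 libraries of the series, 3 from vehicle-treated and 3 from spironolactone-treated mice, chosen by the treatment label alone. All mice were *mdx*, a mouse model of Duchenne muscular dystrophy without dystrophin, and all were 4.5 weeks old, so that dystrophin deficiency was common to the vehicle and treated groups and no healthy muscle was compared here. The sweetened drinking water was given for 7 days without drug (vehicle) or with spironolactone at 250 mg/L. Each library came from CD45+CD11b+ cells, released by enzymatic digestion of the muscle and pooled from 3 mice, so that a replicate is a pool and not an animal. Each treatment group held mice of both sexes, and the sexes within each pool are not given in the sources used here. The remaining 3 libraries, from mice given prednisolone at 6.7 mg/L, entered the fit to estimate the spread and are used below where the response to spironolactone differs from the response to prednisolone.

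Spironolactone blocks the mineralocorticoid receptor, a nuclear receptor that binds aldosterone and, in cells that do not inactivate it, the glucocorticoid corticosterone. Myeloid cells enter dystrophic muscle as it degenerates. There they release chemokines and cytokines, clear debris, and deposit or modify matrix proteins such as fibronectin and thrombospondin 1. Their inflammatory genes are switched on through Toll-like receptors, NF-κB, and MAP kinases, with immediate early transcription factors of the AP-1 and EGR families among the first genes induced.

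Depth was similar between groups. Counts on genes ranged from 31469815 to 32578534 in the 6 libraries, and 16618 of 50559 genes listed passed the filter on low counts and were tested. Levels are given as CPM after TMM normalization, and differences as log2 fold changes with their standard error from the quasi-likelihood test of edgeR over all genes, with Benjamini-Hochberg adjusted *P* values. The defining myeloid markers were present at high levels in every library. *Itgam*, which encodes CD11b, was at 1127, 1264, and 1322 CPM in vehicle and 984, 1170.3, and 978 CPM in spironolactone libraries, and *Ptprc*, which encodes CD45, was at 571, 615, and 627 CPM in vehicle and 553, 623, and 545 CPM in treated libraries. Of the 10 myeloid defining markers, 0 were outside the vehicle range in all spironolactone libraries. On the lower side, 1 marker, *Itgam*, had an unadjusted *P* under 0.05. Its log2 fold change ran from -0.34 to -0.20 in the fits without 1 library, with no adjusted *P* under 0.05. The median log2 fold change of the 10 markers was -0.02. In fits without 1 library, this median ran from -0.092 (without spironolactone replicate 2) to 0.031 (without vehicle replicate 2).

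Few genes passed the adjusted test. The genes that rose were *Aplnr*, *Col15a1*, and *LOC118568479*, 3 in all (0.0181% of the genes tested), and 0 genes fell (0%). The fit on the 6 vehicle and spironolactone libraries alone called 0 genes higher and 4 lower (*Ifrd1*, *Vegfa*, *Cxcl1*, and *Thbs1*), and none of these 3, so that the calls and their direction depended on whether the prednisolone libraries entered the fit. *Thbs1*, which encodes thrombospondin 1, was the lower gene nearest to the threshold (adjusted *P* = 0.0542). At an unadjusted *P* under 0.05, 866 genes (5.21%) were higher and 677 genes (4.07%) were lower, and 1162 genes (6.99%) were higher and 1080 genes (6.5%) lower in every spironolactone library than in every vehicle library. The test of DESeq2 on the same 9 libraries called 181 genes (1.09%) higher and 85 genes (0.511%) lower without the filter on low counts, and 293 genes (200 higher, 93 lower) with the same filter as edgeR, an alternative chosen after the data were seen. The edgeR test without a filter beyond 1 count called 528 genes (325 higher, 203 lower), so that the number of calls depended on both the tool and the filter. The count also depended on single libraries: 0 genes passed without vehicle replicate 3, spironolactone replicate 3, or prednisolone replicate 2, 1 passed without prednisolone replicate 1, and 34 passed without spironolactone replicate 2. Because few genes passed the adjusted test, gene groups are described below by their counts and medians beside those of all genes tested, whose median log2 fold change was 9.04e-05, with 90% of genes between -0.50 and 0.84. Genes described as higher or lower without an adjusted *P* under 0.05 did not pass the edgeR test.

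**Figure D1:**
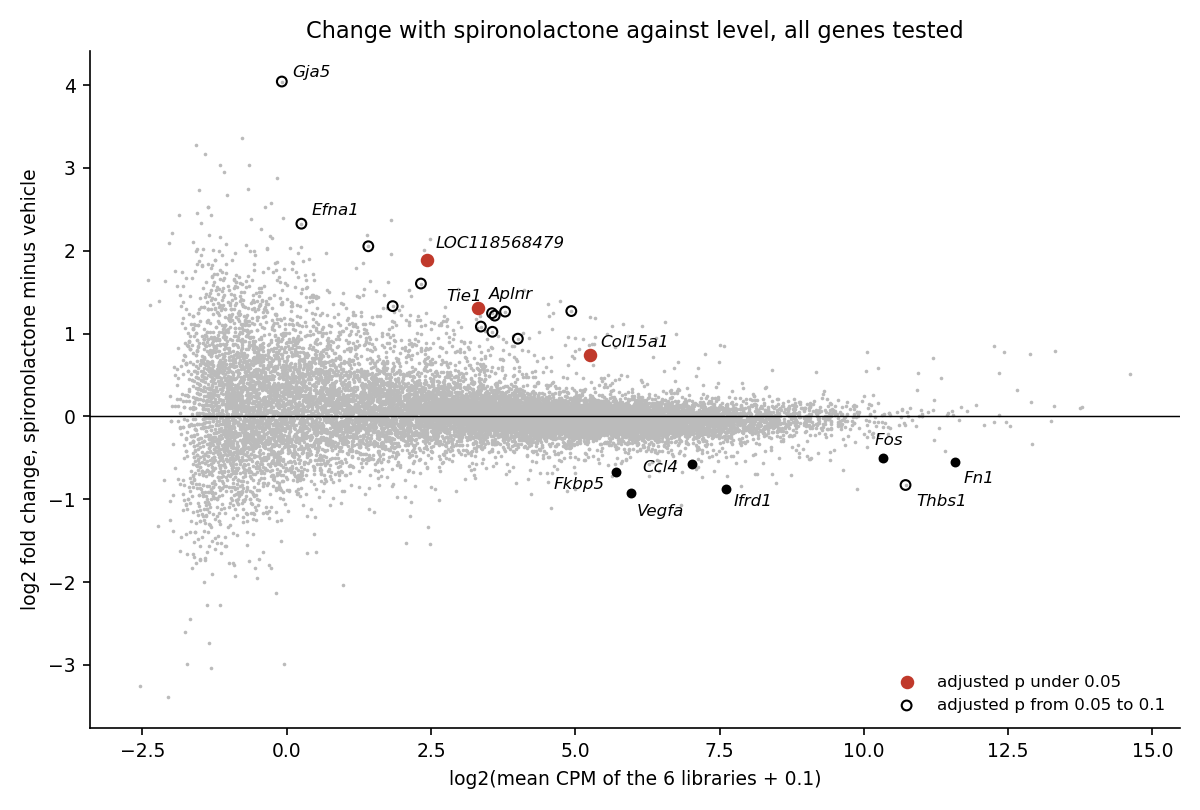
Log2 fold change of spironolactone against vehicle (y axis) against the log2 mean CPM of the 6 libraries (x axis), 1 point for each of 16618 genes. Filled red points are the 3 genes with an adjusted *P* under 0.05, open circles are genes with an adjusted *P* from 0.05 to 0.1, of which *Thbs1* alone lies below 0, and black points are other named genes.

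Among the called genes, the vascular gene *Aplnr* encodes the receptor for the peptide apelin and is known from sprouting and venous endothelial cells (GRCm39 chromosome 2, 84966569 to 84970267, plus strand). *Aplnr* was at 4.23, 5.74, and 7.04 CPM in vehicle libraries and 15.9, 12.9, and 13.4 CPM in spironolactone libraries. The lowest treated library was well above the highest vehicle library, and the fold change was 2.48 (log2 fold change 1.31 ± 0.19, adjusted *P* = 0.0437). *Col15a1*, on chromosome 4 at 47207582 to 47313179 (plus strand), encodes a collagen of the zone around vascular and muscle basement membranes. It was at 25.3, 31, and 29.3 CPM in vehicle and 52.7, 42.5, and 47.9 CPM in spironolactone libraries. The groups did not overlap, and the rise was 1.67-fold (log2 fold change 0.74 ± 0.11, adjusted *P* = 0.0437). *LOC118568479* was at 2.46, 1.97, and 2.34 CPM in vehicle and 5.76, 11.7, and 7.6 CPM in spironolactone libraries. Its treated libraries were spread more widely than its vehicle libraries, yet all lay above them (log2 fold change 1.88 ± 0.26, adjusted *P* = 0.0437). *LOC118568479* is an unnamed locus and is given here by its identifier only. Of the 9 fits that left out a library, 4 kept the call of *LOC118568479*, 3 that of *Aplnr*, and 4 that of *Col15a1*, so that each was lost in most, with the highest adjusted *P* being 0.157 for *LOC118568479*, 0.157 for *Aplnr*, and 0.165 for *Col15a1*, and the direction was the same in all of these fits. In the fit on 6 libraries, the adjusted *P* was 0.0837, 0.0837, and 0.0837, respectively.

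The 250 bases before the start of *Col15a1* are shown because this called gene stands for the matrix genes described below (RefSeq, GRCm38.p6, chr4:47207762-47208011, plus strand, 5′ to 3′). None of the motifs listed below was found in them, so that no letters are in capitals.
Col15a1: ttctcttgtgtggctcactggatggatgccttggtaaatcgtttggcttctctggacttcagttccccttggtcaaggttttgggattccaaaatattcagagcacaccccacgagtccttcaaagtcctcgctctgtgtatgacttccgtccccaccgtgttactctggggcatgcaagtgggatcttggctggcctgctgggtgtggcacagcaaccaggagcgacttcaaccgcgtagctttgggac

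Promoters were searched for several motifs, on both strands, in the window from 250 bases before to 50 bases after each RefSeq start: the hexamer TGTTCT bound by corticosteroid receptors, the full corticosteroid response element (AGAACA and TGTTCT with 3 bases between), the AP-1 site TGANTCA, the cyclic AMP response element TGACGTCA, a loose NF-κB pattern (GGG and CC with 5 bases between), and the CArG box bound by serum response factor. The full element holds the hexamer on each of its strands. Of the tested genes, 11852 had a window, and the share with at least 1 match was 15.9% for the hexamer, 0.00844% for the full element, 6.88% for AP-1, 3.16% for the cyclic AMP response element, 69.3% for the NF-κB pattern, and 1.59% for the CArG box. A pattern present in most windows, as the NF-κB pattern is, does not separate genes. Matches are described beside the gene groups, and none was tested.

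Endothelial genes were higher as a group. All 19 genes of the endothelial list were tested, 18 had an unadjusted *P* under 0.05 on the higher side, 15 were higher in every treated library than in every vehicle library, 10 were called by DESeq2, and 1, *Aplnr*, passed the adjusted edgeR test. Their median log2 fold change was 1.05, with a range from 0.33 to 1.54. *Cdh5*, the cadherin of endothelial junctions, was at 16.6, 27.8, and 25.2 CPM in vehicle and 65.3, 41.6, and 52.5 CPM in spironolactone libraries (log2 fold change 1.2 ± 0.22, adjusted *P* = 0.106). *Tie1*, an orphan receptor of the angiopoietin system, was at 5.29, 8.3, and 7.17 CPM in vehicle and 18.5, 12.9, and 17.9 CPM in treated libraries (log2 fold change 1.25 ± 0.20, adjusted *P* = 0.0636). Both genes were highest in spironolactone replicate 1 and lowest, among treated libraries, in replicate 2. *Pecam1*, which encodes CD31, and the junction gene *Esam* had log2 fold changes of 0.96 ± 0.18 and 1.32 ± 0.25, with adjusted *P* = 0.106 and 0.105. In the fits that left out 1 library, the list median stayed between 0.77 and 1.32.

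The summed level of the endothelial list was 350.3, 419, and 403 CPM in vehicle, 693, 525, and 591 CPM in spironolactone, and 368 to 455 CPM in prednisolone libraries. Spironolactone libraries were thus above every other library, although the list made up a small part of each. In RNA from pooled cells, more cells of a type and more RNA of these genes per cell cannot be told apart.

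The 10 higher genes with the smallest *P* values also hold the genes below. They were taken from the genes without overlap between groups and with a difference of 0.5 or more on the log2 scale. *Cd34*, a sialomucin of endothelial and progenitor cells, was at 5.69, 6.74, and 7.17 CPM in vehicle and 16.9, 12.4, and 12.3 CPM in spironolactone libraries (log2 fold change 1.09 ± 0.17, adjusted *P* = 0.0542). *Gja5*, which encodes the arterial gap junction protein connexin 40, had 1, 6, and 2 counts in vehicle and 60, 58, and 33 counts in spironolactone libraries (log2 fold change 4.04 ± 0.63, adjusted *P* = 0.0542). It was near the detection limit in vehicle, so that its fold change is imprecise, and its vehicle and treated counts did not overlap. *Efna1*, an ephrin ligand, had 13, 8, and 14 counts in vehicle and 60, 42, and 71 counts in spironolactone libraries (log2 fold change 2.33 ± 0.39, adjusted *P* = 0.0636). *Bcam*, a receptor for laminin, *Timp3*, a matrix-bound inhibitor of metalloproteinases, and *Slc9a3r2*, a scaffold protein of the membrane cytoskeleton, had log2 fold changes of 1.02, 1.22, and 0.94, with adjusted *P* = 0.0636, 0.0655, and 0.0636.

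**Figure D2:**
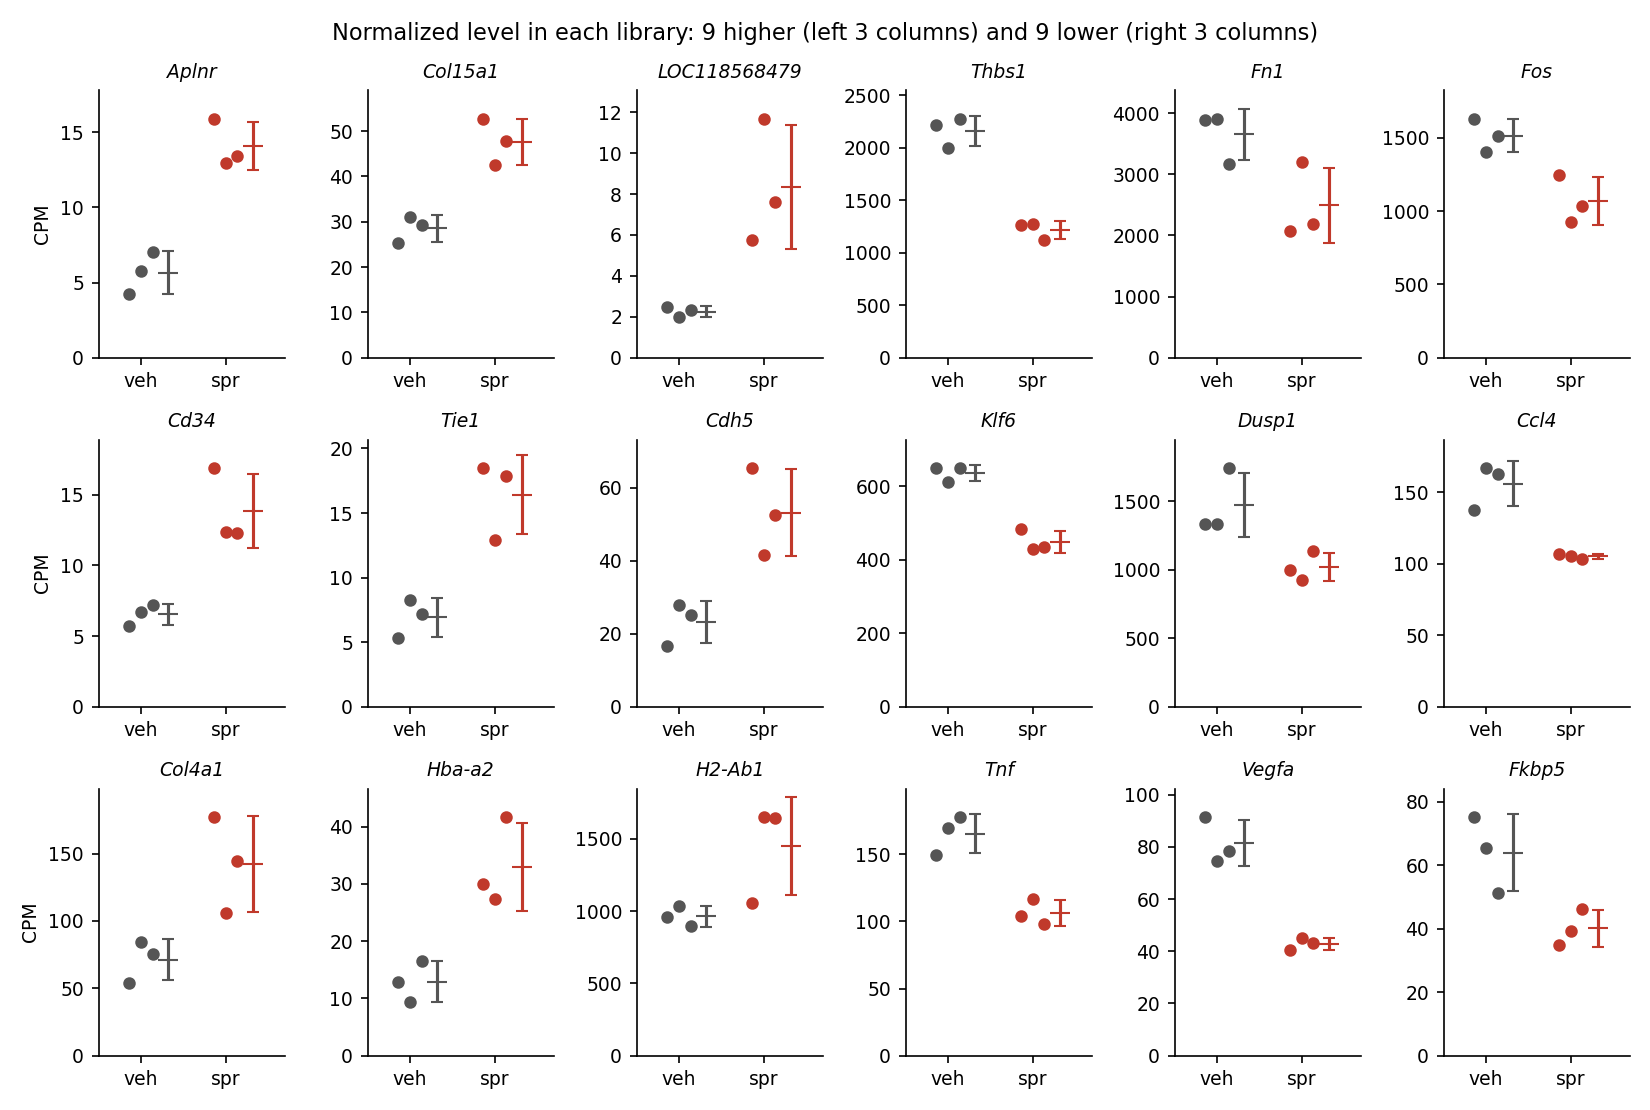
CPM (y axis, from 0) in the 3 vehicle (gray) and 3 spironolactone (red) libraries for 9 genes that were higher and 9 that were lower. Points are libraries in the order of their replicate numbers, and the bar beside them is the mean with its SD. The groups overlap for *Fn1* and for no other gene shown.

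Basement membrane genes paralleled the endothelial list. Basement membranes are thin sheets of type IV collagen, laminin, nidogen, and perlecan under endothelium and around muscle fibers. All 17 genes on the list were tested. Of these, 12 had an unadjusted *P* under 0.05 on the higher side, the same number were above the vehicle range in every treated library or called by DESeq2, and the median log2 fold change was 0.74. *Col4a1* and *Col4a2* encode the chains of the common type IV collagen. *Col4a1* was at 54.2, 84.4, and 75.4 CPM in vehicle and 177, 106, and 144 CPM in spironolactone libraries. *Col4a2* was at 32.4, 52.6, and 51.1 CPM in vehicle and 121, 71, and 96.9 CPM in spironolactone libraries. Both were highest in replicate 1 and lowest in replicate 2, and their log2 fold changes were 1.0 ± 0.20 and 1.09 ± 0.23 (adjusted *P* = 0.129 and 0.149). These genes lie head to head on opposite strands of chromosome 8 and overlap at their starts in GENCODE, so that reads there could not be told apart if counting ignored strand. *Nid1* (nidogen 1), *Lama4* (a vascular laminin chain), *Lamb1* (the laminin β1 chain), and *Pxdn* (peroxidasin, which cross-links type IV collagen) had log2 fold changes of 0.86, 1.07, 0.68, and 0.98, with adjusted *P* from 0.129 to 0.166. *Sparc*, a collagen-binding matrix protein, was at 80.1, 138, and 120.2 CPM in vehicle and 217, 146, and 209 CPM in spironolactone libraries.

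Fibrillar collagens and interstitial matrix genes had a lower median. Of the 19 genes tested, 12 had an unadjusted *P* under 0.05 on the higher side and 3 (*Dcn*, *Mfap5*, and *Eln*) were above the vehicle range in every treated library, with a median log2 fold change of 0.46. The count of 12 was 4 without spironolactone replicate 1, 5 without vehicle replicate 1, 6 without spironolactone replicate 3, 7 without vehicle replicate 3, and 7 in the fit on 6 libraries or with a replicate block. *Col3a1* was at 222, 309, and 295 CPM in vehicle and 447, 307, and 467 CPM in spironolactone libraries, and *Col1a1* at 229.8, 307, and 293 CPM in vehicle and 401, 276, and 371 CPM in treated libraries. Spironolactone replicate 2 lay within the vehicle range for both collagens. *Dcn* (decorin, log2 fold change 0.81 ± 0.24, adjusted *P* = 0.303), *Fbln2* (fibulin 2, 0.70 ± 0.17, adjusted *P* = 0.167), *Sparcl1* (a SPARC relative of vessels, 1.39 ± 0.36, adjusted *P* = 0.254), and *Mfap5* (a microfibril protein, 0.54 ± 0.18, adjusted *P* = 0.316) were above the vehicle range in every treated library, whereas *Thbs3* (thrombospondin 3) was not (0.37 ± 0.23, adjusted *P* = 0.67). Across the 17 basement membrane genes, spironolactone replicate 2 was the treated library nearest to the vehicle mean for 15, and across the 19 fibrillar collagen and matrix genes for 15, compared with 6485 of the 16618 genes tested.

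Markers of several cell types that a CD45+CD11b+ gate should remove, or hold in small numbers, were higher alongside these genes. Skeletal muscle fiber genes summed to 323, 485, and 482 CPM in vehicle and 692, 564, and 931 CPM in spironolactone libraries, and 9 of the 17 tested were above the vehicle range in every treated library (median log2 fold change 0.85). *Myh1*, a fast myosin heavy chain, *Tnnt3*, a fast troponin, and *Atp2a1*, the calcium pump SERCA1, had log2 fold changes of 1.01 ± 0.22, 0.98 ± 0.23, and 0.87 ± 0.25 (adjusted *P* = 0.128, 0.173, and 0.29). All 6 erythroid genes tested had positive fold changes, and the list summed to 95.8, 70.3, and 135 CPM in vehicle and 187, 193, and 306 CPM in spironolactone libraries. The α-globin gene *Hba-a2* was at 12.8, 9.3, and 16.5 CPM in vehicle and 29.9, 27.3, and 41.6 CPM in spironolactone libraries (log2 fold change 1.36 ± 0.24, adjusted *P* = 0.106), with reads that its near-identical copy *Hba-a1* could share. Erythroid and muscle sums were highest in spironolactone replicate 3, unlike the endothelial and basement membrane sums, which were highest in replicate 1.

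Fibro-adipogenic progenitor genes (median log2 fold change 0.54, 8 of 12 with an unadjusted *P* under 0.05, *Dcn* and *Mfap5* above the vehicle range) and pericyte and smooth muscle genes (0.90, 3 of 9, with *Rgs5*, *Mcam*, and *Myh11* above the vehicle range) were also higher. The fibro-adipogenic list shares *Lum*, *Dcn*, *Mfap5*, *Fbn1*, *Col1a1*, *Col1a2*, and *Col3a1* with the fibrillar collagen and matrix list, so that these lists are not independent. The count of fibro-adipogenic genes was 3 without vehicle replicate 1 or spironolactone replicate 1, 4 without spironolactone replicate 3 or in the fit on 6 libraries, and 5 with a replicate block, and the pericyte median was 0.47 without spironolactone replicate 1, with 6 genes without vehicle replicate 2. *Rgs5*, which marks pericytes, was at 13.3, 19.3, and 10.6 CPM in vehicle and 47.1, 26.1, and 29.3 CPM in spironolactone libraries (log2 fold change 1.25 ± 0.27, adjusted *P* = 0.164). *Mcam*, which encodes CD146 of mural and endothelial cells, had a log2 fold change of 0.90 ± 0.26 (adjusted *P* = 0.215). By contrast, the 6 genes of muscle stem cells and myoblasts had a median log2 fold change of -0.27, and the 4 platelet genes tested of -0.059, with 0 genes of either list at an unadjusted *P* under 0.05. The muscle stem cell median was -0.49 without vehicle replicate 1 and -0.12 without vehicle replicate 3, and the platelet median turned to 0.13 without vehicle replicate 2. The part of these cell types in the differences of matrix and endothelial genes was not tested.

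Lymphocyte genes and several mast cell genes were low in all libraries and higher with spironolactone. The summed level of the lymphocyte and NK cell list was 36.2, 33.2, and 35.6 CPM in vehicle, 54.8, 58.5, and 62.5 CPM in spironolactone, and 20.1 to 33.1 CPM in prednisolone libraries. The median log2 fold change of this list was 1.17, and it was 0.66 without spironolactone replicate 3. *Gzma* and *Gzmb* encode granzymes, which cytotoxic cells release. *Gzma* was at 1.0, 1.25, and 1.56 CPM in vehicle and 4.21, 2.66, and 5.0 CPM in spironolactone libraries, and *Gzmb* was at 1.0, 1.37, and 2.4 CPM in vehicle and 6.11, 3.86, and 4.81 CPM in spironolactone libraries. The groups did not overlap for either gene, with log2 fold changes of 1.64 ± 0.37 and 1.63 ± 0.40 (adjusted *P* = 0.129 and 0.164). *Ncr1*, an NK cell receptor, and *Cd79a*, part of the B cell receptor, rested on 52 and 42 counts in all vehicle libraries together and on 167 and 142 counts in spironolactone libraries. The mast cell protease gene *Mcpt4* was at 1.76, 1.97, and 2.37 CPM in vehicle and 4.27, 7.11, and 13.2 CPM in spironolactone libraries. *Tpsb2*, a mast cell tryptase gene, was at 2.46, 1.28, and 2.31 CPM in vehicle and 4.4, 7.4, and 14.9 CPM in spironolactone libraries. The highest value of each was in spironolactone replicate 3. *Mcpt4* had a log2 fold change of 2.01 ± 0.39 (adjusted *P* = 0.106), and these were the only 2 of the 8 genes tested of the eosinophil, mast cell, and basophil list above the vehicle range. The median log2 fold change of that list was 0.42, with 6 of 8 genes positive and a range from -1.54 (*Prg2*, ± 1.6) to 2.14 (*Tpsb2*), and it was 1.26 without vehicle replicate 3, 0.21 without vehicle replicate 2, 0.23 without spironolactone replicate 2, and 0.19 without spironolactone replicate 3.

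**Figure D3:**
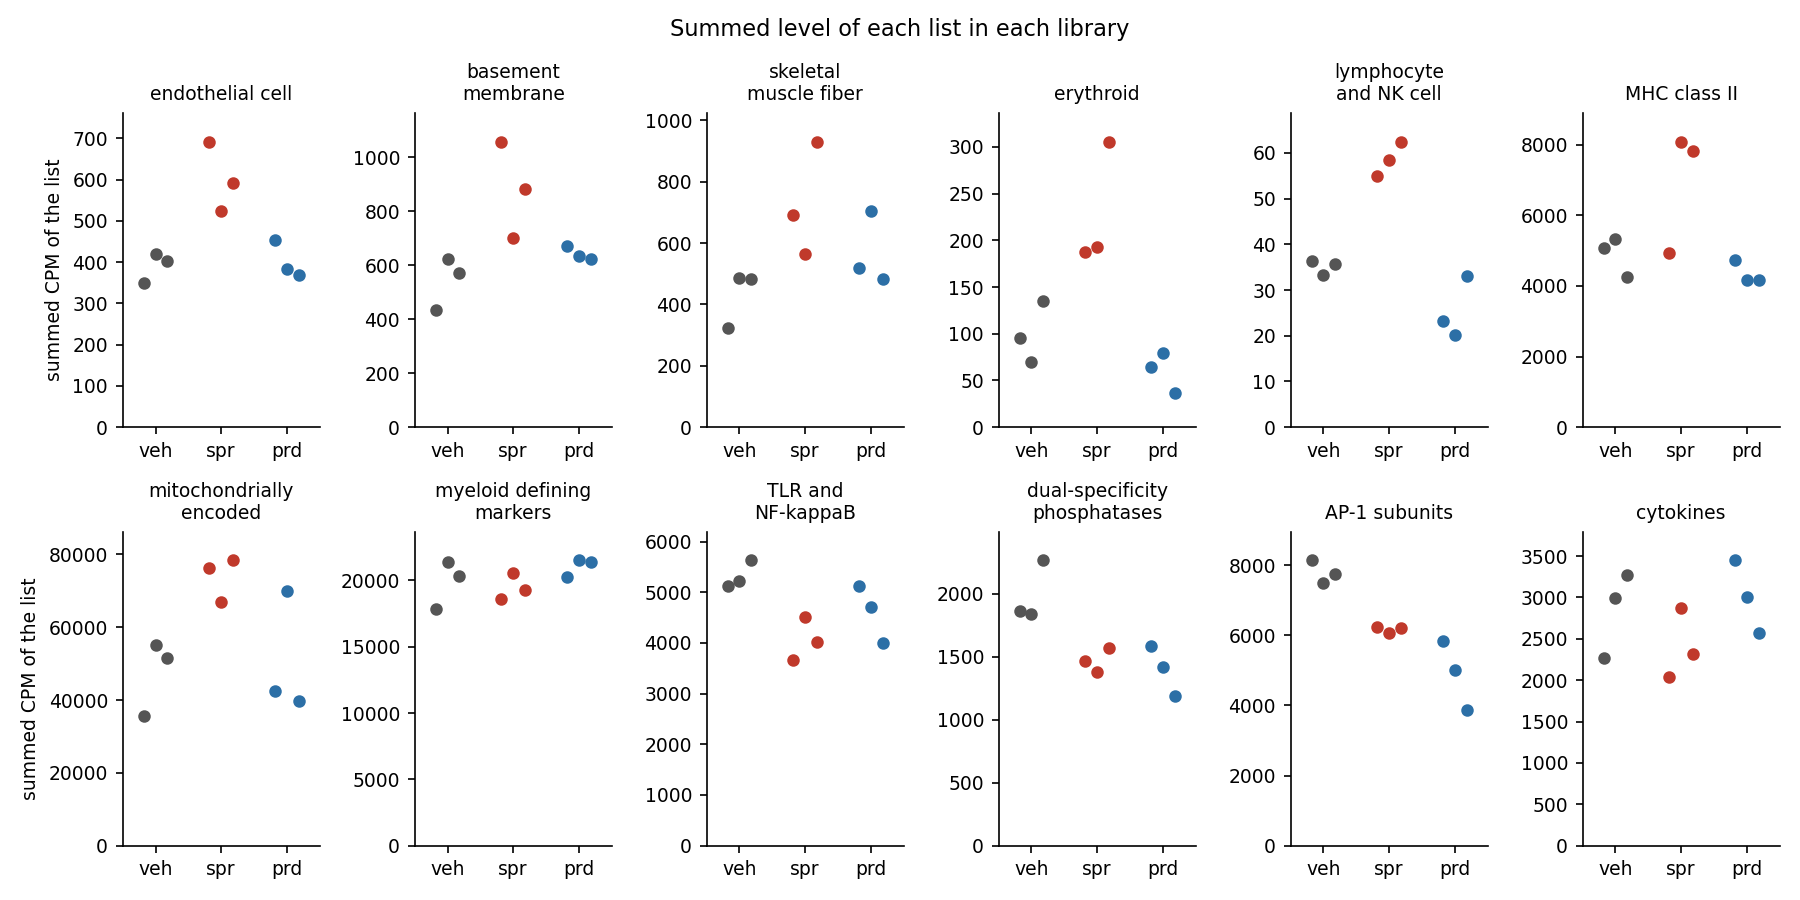
Summed CPM (y axis, from 0) of 12 gene lists in each vehicle (gray), spironolactone (red), and prednisolone (blue) library, 1 point per library. Endothelial, basement membrane, erythroid, and lymphocyte sums lie above every vehicle and prednisolone library in all spironolactone libraries, the MHC class II sum of spironolactone replicate 1 lies within the vehicle range, and AP-1, dual-specificity phosphatase, and Toll-like receptor sums lie below every vehicle library.

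Of the genes that were lower with spironolactone, *Thbs1* came nearest to the threshold. Thrombospondin 1 is a secreted matricellular glycoprotein that activates latent TGF-β and binds CD47 and CD36. *Thbs1* (chromosome 2, 117941974 to 117957616, plus strand) was at 2212, 1997, and 2272 CPM in vehicle libraries and 1264, 1269, and 1118 CPM in spironolactone libraries. The groups were far apart relative to their spread, with a log2 fold change of -0.83 ± 0.13 (adjusted *P* = 0.0542). Its adjusted *P* ranged from 0.0321 to 0.212 over the fits without 1 library. *Fn1*, which encodes fibronectin, was at 3889.7, 3904, and 3167 CPM in vehicle and 2080.3, 3203, and 2191 CPM in spironolactone libraries (log2 fold change -0.55 ± 0.16, adjusted *P* = 0.217). The test of DESeq2 on the 9 libraries gave *Fn1* an adjusted *P* of 0.0223. Spironolactone replicate 2 was within the vehicle range for *Fn1*, and the other two treated libraries were below it. *Spp1* (osteopontin, another matricellular protein) was at 7169, 7836, and 10647 CPM in vehicle and 8329, 6473, and 5584 CPM in spironolactone libraries, and the groups overlapped. Among the fibronectin and thrombospondin receptors, *Itga5*, the α chain of the main fibronectin integrin, was at 334, 329, and 332 CPM in vehicle and 291, 281, and 285 CPM in spironolactone libraries, a small difference with no overlap (log2 fold change -0.21 ± 0.081, adjusted *P* = 0.424). TGF-β pathway genes had a median log2 fold change of -0.081 (from -0.12 without spironolactone replicate 1 to -0.028 without vehicle replicate 1 and -0.0073 without spironolactone replicate 3), and *Skil*, a repressor that TGF-β induces, was at 141, 135, and 136 CPM in vehicle and 97, 112, and 89.1 CPM in spironolactone libraries (log2 fold change -0.47 ± 0.095, adjusted *P* = 0.106).

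Most immediate early genes were lower. Of 12 AP-1 subunit genes, 9 had negative fold changes, 7 were below the vehicle range in every treated library, and the median log2 fold change was -0.30. The highest member, *Batf3*, had a log2 fold change of 0.47 ± 0.20 with overlapping groups. *Fos* was at 1628, 1402, and 1513 CPM in vehicle and 1248, 929, and 1034 CPM in spironolactone libraries (log2 fold change -0.50 ± 0.14, adjusted *P* = 0.232). *Jun*, its common partner, was at 1543, 1229, and 1132 CPM in vehicle and 1259.6, 1026, and 1067 CPM in treated libraries, and these values overlapped (log2 fold change -0.22 ± 0.16). The small MAF gene *Maff*, the FOS relative *Fosl2*, and the stress-induced *Atf3* had log2 fold changes of -0.68, -0.50, and -0.45 with no overlap between groups (adjusted *P* = 0.306, 0.311, and 0.356). Of 19 EGR, NR4A, IER, and KLF genes, 18 had negative fold changes, 8 were below the vehicle range, and the median was -0.28. *Klf6*, a zinc finger factor of activated macrophages, was at 649, 612, and 649.5 CPM in vehicle and 484, 429, and 436 CPM in spironolactone libraries (log2 fold change -0.50 ± 0.11, adjusted *P* = 0.129). *Zfp36*, whose product tristetraprolin degrades cytokine mRNA, *Ier3*, an early stress gene, and *Nr4a1*, an orphan nuclear receptor, had log2 fold changes of -0.42 ± 0.14, -0.70 ± 0.22, and -0.41 ± 0.15.

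Dual-specificity phosphatases, which are induced by MAP kinases and inactivate them, had a median log2 fold change of -0.41 over 10 genes, with 6 at an unadjusted *P* under 0.05 and 5 (*Dusp1*, *Dusp2*, *Dusp3*, *Dusp5*, and *Dusp10*) below the vehicle range. The count of 6 was 3 without vehicle replicate 3. *Dusp1*, which acts on p38 and JNK, was at 1336, 1334, and 1741 CPM in vehicle and 997, 927, and 1133 CPM in spironolactone libraries (log2 fold change -0.53 ± 0.15, adjusted *P* = 0.208). *Dusp5*, a nuclear phosphatase of ERK, was at 55.1, 54.9, and 74.7 CPM in vehicle and 33.7, 43, and 35.5 CPM in treated libraries, and *Dusp10*, a phosphatase of p38 and JNK, at 10.4, 10.5, and 10.9 CPM in vehicle and 7.88, 6.51, and 6.52 CPM in treated libraries. For all 3, every treated library was below every vehicle library, with log2 fold changes from -0.72 (*Dusp5*, adjusted *P* = 0.254) to -0.53 (*Dusp1*), and an adjusted *P* of 0.189 for *Dusp10*. *Dusp4* had a log2 fold change of -0.97 ± 0.32 with overlapping groups.

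The promoters of *Dusp1*, *Dusp5*, and *Zfp36* are shown because they hold signal-responsive motifs that are uncommon among tested genes. The 250 bases before each start are given 5′ to 3′ on the strand of the gene (RefSeq, GRCm38.p6), with *Dusp1* at chr17:26508473-26508722 (minus strand), *Dusp5* at chr19:53528895-53529144 (plus strand), and *Zfp36* at chr7:28379229-28379478 (minus strand). Capitals mark the cyclic AMP response element of *Dusp1*, the pair of adjoining CArG boxes of *Dusp5*, and the CArG box of *Zfp36*.
Dusp1: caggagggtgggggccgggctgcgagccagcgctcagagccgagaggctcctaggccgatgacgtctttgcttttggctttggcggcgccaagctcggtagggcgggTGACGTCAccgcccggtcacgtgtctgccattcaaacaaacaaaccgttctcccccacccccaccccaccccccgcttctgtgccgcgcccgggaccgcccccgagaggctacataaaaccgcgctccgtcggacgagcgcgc
Dusp5: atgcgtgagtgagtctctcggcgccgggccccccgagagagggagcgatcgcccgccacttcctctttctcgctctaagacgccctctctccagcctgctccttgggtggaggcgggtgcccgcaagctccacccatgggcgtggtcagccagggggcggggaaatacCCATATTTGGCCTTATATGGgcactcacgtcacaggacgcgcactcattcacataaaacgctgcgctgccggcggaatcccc
Zfp36: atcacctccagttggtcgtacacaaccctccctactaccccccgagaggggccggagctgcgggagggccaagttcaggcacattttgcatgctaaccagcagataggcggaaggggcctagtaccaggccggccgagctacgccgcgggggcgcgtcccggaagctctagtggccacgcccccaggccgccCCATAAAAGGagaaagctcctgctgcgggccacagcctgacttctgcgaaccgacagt
The cyclic AMP response element began 143 bases before the start of *Dusp1*, the CArG boxes 82 and 72 bases before the start of *Dusp5*, and the CArG box 58 bases before the start of *Zfp36*. Of the 9 phosphatase genes with a window, 22.2% held a cyclic AMP response element, and of the 14 EGR, NR4A, IER, and KLF genes with a window, 14.3% held a CArG box. These shares come from 2 genes each. In lists that were higher, 14.3% of skeletal muscle fiber genes with a window held a CArG box (2 genes). A cyclic AMP response element was held by 14.3% of MHC class II genes with a window (1 gene). The share was 0% for the CArG box in MHC class II genes and for the cyclic AMP response element in muscle fiber genes.

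Genes of Toll-like receptor and NF-κB signaling were lower in part. Of 28 genes tested, 10 were below the vehicle range in every treated library, 1 (*Tlr3*) was above it, and 5 (*Nfkbie*, *Tlr2*, *Nfkbiz*, *Cd14*, and *Tnfaip3*) were called lower by DESeq2. The median log2 fold change was -0.14. The lower genes included inhibitors that NF-κB is known to induce. *Nfkbie*, which encodes the inhibitor IκBε, was at 93, 90.2, and 95.6 CPM in vehicle and 53.5, 78, and 56.1 CPM in spironolactone libraries (log2 fold change -0.57 ± 0.14, adjusted *P* = 0.164). *Nfkbiz*, a nuclear cofactor of NF-κB, was at 410.4, 398, and 457 CPM in vehicle and 231, 305, and 245 CPM in treated libraries (log2 fold change -0.70 ± 0.18, adjusted *P* = 0.187). For both genes, spironolactone replicate 2 was nearest to vehicle, as it was for 20 of the 28 genes on the list. *Nfkbia* (IκBα), the receptor gene *Tlr2*, and the kinase gene *Irak2* had log2 fold changes of -0.53 ± 0.20, -0.54 ± 0.14, and -0.34 ± 0.091, again without overlap. *Malt1*, a paracaspase that relays receptor signals to NF-κB, was at 99.3, 92.6, and 92.7 CPM in vehicle and 75.1, 59.6, and 60.4 CPM in spironolactone libraries (log2 fold change -0.54 ± 0.10, adjusted *P* = 0.106).

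The promoter of *Nfkbie* is shown for its AP-1 site, which began 156 bases before the start and is in capitals (RefSeq, GRCm38.p6, chr17:45555450-45555699, plus strand, 5′ to 3′). Of the 21 genes of this list with a window, 19% (4 genes) held an AP-1 site, compared with 6.88% of all tested genes with a window. The share was also above that of all tested genes in lists that were not lower, as for MHC class II (28.6%, 2 genes) and repair macrophage genes (33.3%, 3 genes). It was 0% for endothelial and basement membrane genes, which were higher. Among lists that were lower, it was also 0% for AP-1 subunit, dual-specificity phosphatase, circadian, and histone demethylase and Polycomb genes. It was 20% for chemokine genes and 26.7% for cytokine genes.
Nfkbie: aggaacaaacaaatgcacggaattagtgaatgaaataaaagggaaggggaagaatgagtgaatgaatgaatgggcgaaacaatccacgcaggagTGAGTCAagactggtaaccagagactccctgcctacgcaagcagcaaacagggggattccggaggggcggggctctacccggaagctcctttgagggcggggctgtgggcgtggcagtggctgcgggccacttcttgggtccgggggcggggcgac

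Chemokine genes were lower in part. The inflammatory chemokines *Ccl3* and *Ccl4*, which attract monocytes and T cells, and *Cxcl1* and *Cxcl2*, which attract neutrophils, were lower in every treated library, whereas the median of all 22 chemokine genes tested was -0.18. This median was -0.42 without vehicle replicate 1, -0.36 without spironolactone replicate 2, and -0.071 without vehicle replicate 2. *Ccl4* was at 138, 167, and 163 CPM in vehicle and 107, 105, and 103 CPM in spironolactone libraries (log2 fold change -0.57 ± 0.11, adjusted *P* = 0.106). *Ccl3* was at 160.3, 249, and 224 CPM in vehicle and 140.1, 146, and 149.6 CPM in treated libraries (log2 fold change -0.54 ± 0.15, adjusted *P* = 0.235). The treated libraries were close together for both genes. *Cxcl1* was at 180.2, 136, and 146 CPM in vehicle and 67, 75.9, and 78.5 CPM in spironolactone libraries, and *Cxcl2* at 934, 1188, and 1515 CPM in vehicle and 498, 756, and 731 CPM in treated libraries. Their log2 fold changes were the larger in size, -1.06 ± 0.37 and -0.87 ± 0.28, but less precise (adjusted *P* = 0.436 and 0.344). For *Cxcl1*, the fit on the 6 vehicle and spironolactone libraries alone gave an adjusted *P* of 0.0228. The 2 chemokine genes above the vehicle range in every treated library were *Ccl11* (eotaxin, at 0.365, 1.44, and 1.22 CPM in vehicle and 2.82, 1.52, and 1.71 CPM in spironolactone libraries) and *Cxcl9* (an interferon-γ-induced chemokine, log2 fold change 0.66 ± 0.33).

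Cytokine genes had a median log2 fold change of -0.49 over 18 genes tested, and 4 (*Tnf*, *Il10*, *Tnfsf9*, and *Csf3*) were below the vehicle range in every treated library. The median ran from -0.73 without spironolactone replicate 2 to -0.34 without spironolactone replicate 1. On the lower side, 6 genes had an unadjusted *P* under 0.05. This count was 1 without vehicle replicate 2, spironolactone replicate 1, or spironolactone replicate 3. The summed levels of the list overlapped between groups. *Tnf* was at 149, 169, and 178 CPM in vehicle and 104, 117, and 98.1 CPM in spironolactone libraries (log2 fold change -0.64 ± 0.19, adjusted *P* = 0.277). The antiinflammatory *Il10* was at 29.6, 22.5, and 21.3 CPM in vehicle and 11.6, 15, and 11.7 CPM in treated libraries (log2 fold change -0.94 ± 0.38, adjusted *P* = 0.50), so that the lower cytokines were not of 1 kind. *Cd274*, which encodes the checkpoint ligand PD-L1, was at 74.4, 61.6, and 71.2 CPM in vehicle and 55.1, 47, and 42.7 CPM in spironolactone libraries (log2 fold change -0.52 ± 0.11, adjusted *P* = 0.128). Inflammasome genes had a median log2 fold change of -0.015 (from -0.064 without vehicle replicate 1 to 0.045 without vehicle replicate 3), and interferon-stimulated genes of 0.032, the latter -0.16 without vehicle replicate 1 and 0.25 without vehicle replicate 3.

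Hypoxia response genes were lower for *Vegfa* and *Hilpda* and higher for *Epas1*. *Vegfa*, the angiogenic growth factor, was at 91.4, 74.7, and 78.3 CPM in vehicle and 40.5, 45, and 43.2 CPM in spironolactone libraries (log2 fold change -0.93 ± 0.21, adjusted *P* = 0.164). *Hilpda*, a lipid droplet protein induced by hypoxia, was at 25.5, 25.6, and 35.6 CPM in vehicle and 16.7, 15.9, and 17.7 CPM in treated libraries (log2 fold change -0.79 ± 0.17, adjusted *P* = 0.129). *Hif1a*, the oxygen-regulated subunit of HIF-1, was at 157, 211, and 202 CPM in vehicle and 143, 152, and 134 CPM in treated libraries (log2 fold change -0.41 ± 0.11, adjusted *P* = 0.188). *Epas1*, which encodes HIF-2α and is also a gene of endothelial cells, was at 20.1, 26.5, and 22.3 CPM in vehicle and 45.3, 32.6, and 37 CPM in spironolactone libraries (log2 fold change 0.73 ± 0.16, adjusted *P* = 0.129). The list as a whole had 4 of 17 genes below (those named and *P4ha1*) and 1 above the vehicle range, with a median of -0.14. This median ran from -0.18 without vehicle replicate 2 to -0.092 without vehicle replicate 3.

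The receptor that spironolactone blocks was barely detected. *Nr3c2*, which encodes the mineralocorticoid receptor, had 6, 6, and 27 counts in vehicle and 30, 28, and 2 counts in spironolactone libraries, so that no difference was detectable. The glucocorticoid receptor gene *Nr3c1* was at 93.8, 93.1, and 95.7 CPM in vehicle and 94, 88, and 78.2 CPM in spironolactone libraries. The genes of the last steps of corticosterone and aldosterone synthesis, *Cyp11b1* and *Cyp11b2*, had 0 counts in all 6 libraries, which by counting error alone allows up to 0.0953 CPM in a library. Genes known to be induced by corticosteroids were lower in part, with 3 of 13 below the vehicle range and a median log2 fold change of -0.15. This median was larger in size, -0.42, -0.38, and -0.26, without vehicle replicate 2, spironolactone replicate 3, and vehicle replicate 1, respectively. *Fkbp5*, a cochaperone of steroid receptors, was at 75.1, 65.4, and 51.1 CPM in vehicle and 34.8, 39.4, and 46.2 CPM in spironolactone libraries (log2 fold change -0.67 ± 0.14, adjusted *P* = 0.128). *Per1*, a clock gene, was at 261, 209, and 264 CPM in vehicle and 127, 151, and 167 CPM in treated libraries (log2 fold change -0.72 ± 0.16, adjusted *P* = 0.156), and *Klf9*, a zinc finger factor, had a log2 fold change of -0.55 ± 0.12 (adjusted *P* = 0.129). The groups overlapped for 2 other targets. *Sgk1*, which encodes a kinase of sodium transport, was at 445, 303, and 324 CPM in vehicle and 316, 234, and 255 CPM in spironolactone libraries. *Tsc22d3*, which encodes the glucocorticoid-induced protein GILZ, was at 157, 146, and 167 CPM in vehicle and 94.6, 113, and 156 CPM in spironolactone libraries.

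*Sgk1* held the 1 full corticosteroid response element found among the tested genes with a window. The element began 189 bases before 1 of its RefSeq starts, and is in capitals in the 250 bases shown (GRCm38.p6, chr10:21993640-21993889, plus strand, 5′ to 3′).
Sgk1: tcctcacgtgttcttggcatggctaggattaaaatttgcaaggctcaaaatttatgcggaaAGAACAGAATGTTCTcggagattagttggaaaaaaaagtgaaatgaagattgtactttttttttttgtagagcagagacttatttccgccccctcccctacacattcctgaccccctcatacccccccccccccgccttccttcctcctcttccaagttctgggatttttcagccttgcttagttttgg

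Clock and chromatin genes were lower in part as well. Of 17 circadian genes tested, 3 were below the vehicle range, *Per1*, *Nfil3*, a repressor of D-box genes, at 134, 149, and 143 CPM in vehicle and 78.4, 96.5, and 92.6 CPM in spironolactone libraries (log2 fold change -0.67 ± 0.17, adjusted *P* = 0.173), and *Bhlhe40*, a repressor of E-box genes (log2 fold change -0.48 ± 0.11, adjusted *P* = 0.129). Of 9 genes for demethylases of histone H3 lysine residues and for Polycomb proteins, 5 were below the vehicle range, *Phf8*, the demethylase genes *Kdm6b* (log2 fold change -0.57 ± 0.18) and *Kdm7a* (-0.37 ± 0.093), and the Polycomb genes *Jarid2* (-0.32 ± 0.12) and *Suz12* (-0.20 ± 0.094). The remaining genes among the 10 lower genes with the smallest *P* values were *Sde2*, which acts in the response to replication stress, *Tiparp*, a target of the aryl hydrocarbon receptor, *Ptp4a1*, a phosphatase, *Ifrd1*, a stress-induced transcriptional regulator, and *Gm39701*. *Ifrd1* was at 261, 238, and 256 CPM in vehicle and 134, 149, and 128 CPM in spironolactone libraries (log2 fold change -0.87 ± 0.17, adjusted *P* = 0.127). *Tiparp* was at 82.7, 97.2, and 108 CPM in vehicle and 57.9, 63.8, and 52.9 CPM in treated libraries, and *Ptp4a1* at 62.9, 54.7, and 67.8 CPM in vehicle and 40.4, 41.4, and 42.6 CPM in treated libraries. *Sde2* and *Gm39701* had log2 fold changes of -0.52 ± 0.10 and -0.90 ± 0.18 (adjusted *P* = 0.106 and 0.106).

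**Figure D4:**
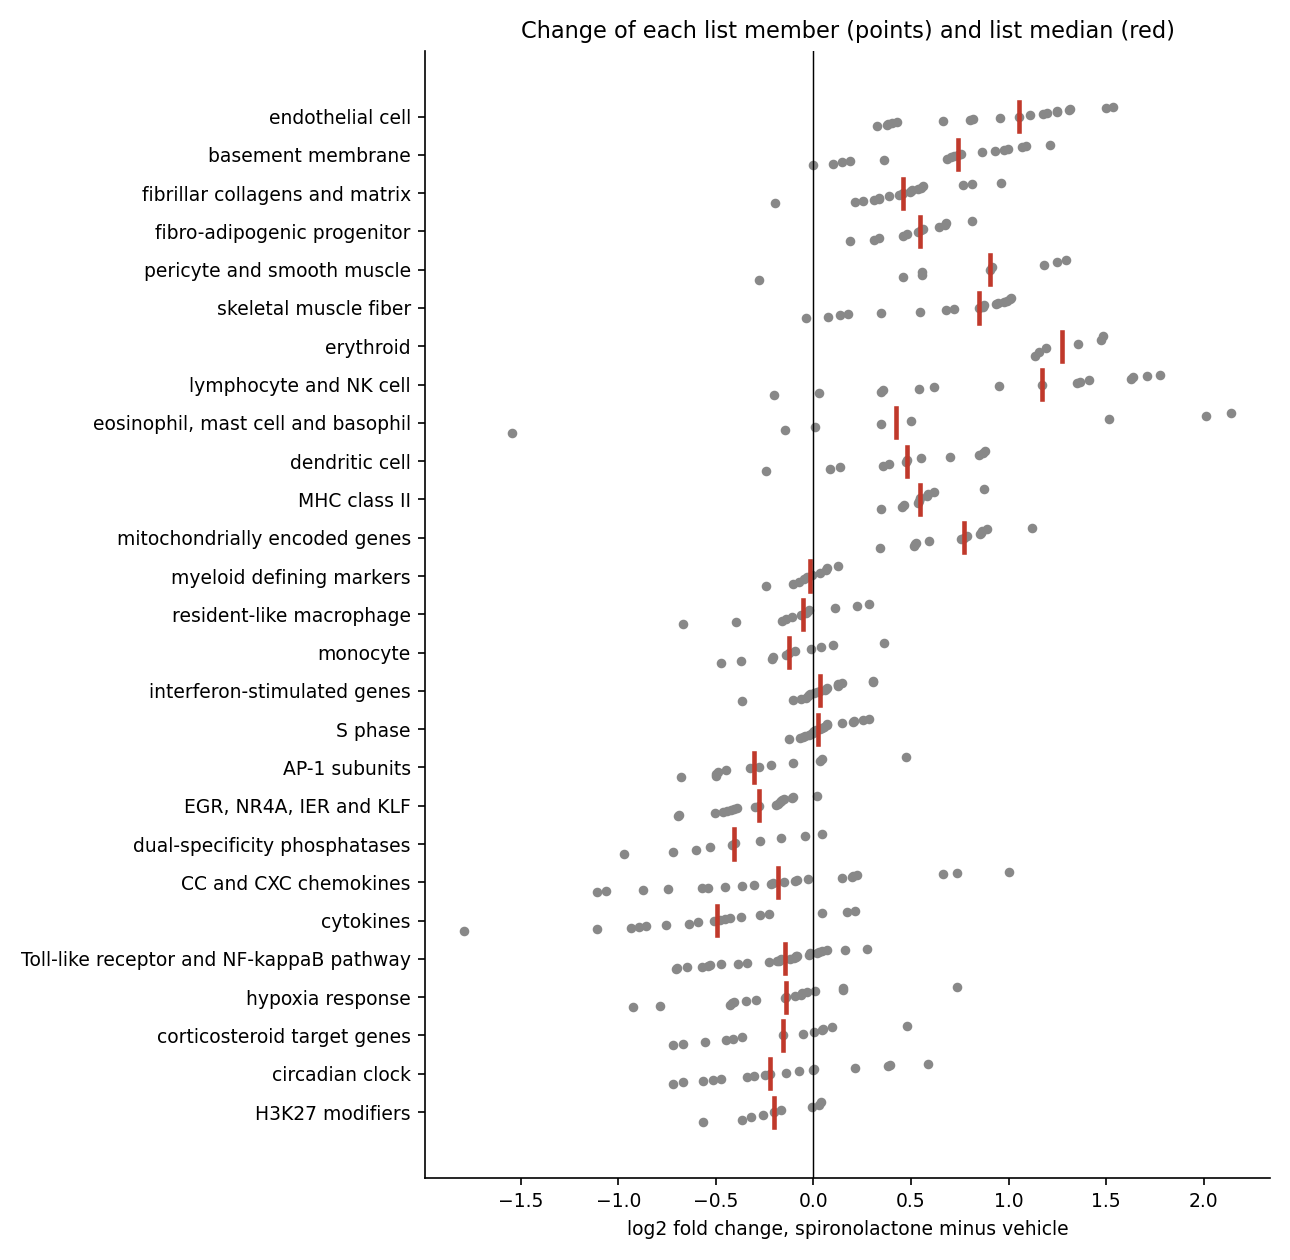
Log2 fold change of spironolactone against vehicle (x axis) for each tested member (gray points) of 27 gene lists (y axis), with the list median as a red bar. Medians run from 1.27 (erythroid) and 1.17 (lymphocyte and NK cell) on the higher side to -0.49 (cytokines) on the lower side, and myeloid defining markers center near 0.

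Antigen presentation genes of MHC class II, which display peptides to CD4+ T cells, were higher as a group. All 10 genes had positive fold changes and an unadjusted *P* under 0.05, 5 (*Ciita*, *H2-Ab1*, *H2-DMb1*, *H2-Oa*, and *H2-Ob*) were above the vehicle range in every treated library, and the median log2 fold change was 0.55. The count of 10 was 6 without vehicle replicate 3 or spironolactone replicate 3. *H2-Ab1* was at 961, 1035, and 895 CPM in vehicle and 1056, 1650.0, and 1643 CPM in spironolactone libraries (log2 fold change 0.59 ± 0.15, adjusted *P* = 0.166). *Cd74*, the invariant chain, was at 2326, 2427, and 1789 CPM in vehicle and 2075, 3522, and 3419.5 CPM in treated libraries (log2 fold change 0.46 ± 0.18, adjusted *P* = 0.46). Spironolactone replicate 1 was near or within the vehicle range for these genes, and replicates 2 and 3 were above it. *Ciita*, the master activator of MHC class II, was at 88.6, 73.9, and 64.9 CPM in vehicle and 93.8, 128, and 109.9 CPM in spironolactone libraries. *H2-Oa* had a log2 fold change of 0.87 ± 0.21, and *H2-Aa* and *H2-Eb1*, which overlap each other on opposite strands in GENCODE, of 0.55 ± 0.16 and 0.53 ± 0.16. Dendritic cell genes were higher in parallel, with a median of 0.48 and 4 of 12 (*Flt3*, *Cd209a*, *Xcr1*, and *Irf8*) above the vehicle range, and *Flt3*, the cytokine receptor of dendritic cell precursors, was at 18.2, 13.6, and 15.8 CPM in vehicle and 21.1, 23, and 25.8 CPM in spironolactone libraries (log2 fold change 0.55 ± 0.13, adjusted *P* = 0.129).

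Mitochondrially encoded transcripts made up a larger part of the spironolactone than of the vehicle libraries. The 13 protein-coding genes summed to 35661, 55112, and 51494 CPM in vehicle and 76367, 67037, and 78467 CPM in spironolactone libraries, and 11 of them were above the vehicle range in every treated library (median log2 fold change 0.77). Prednisolone libraries ranged from 39767 to 69920 CPM, the highest being above spironolactone replicate 2. On the higher side, 8 genes had an unadjusted *P* under 0.05, 3 without vehicle replicate 1 and 4 without spironolactone replicate 3. DESeq2 on 9 libraries called 0. *COX1*, a subunit of complex IV, was at 15888, 24014, and 22134 CPM in vehicle and 29617, 27546, and 31366 CPM in spironolactone libraries (log2 fold change 0.51 ± 0.20, adjusted *P* = 0.459), and *ND1*, a subunit of complex I, had a log2 fold change of 0.75 ± 0.23 (adjusted *P* = 0.289). Vehicle replicate 1 had the lowest sum, and it also had the highest share of reads outside annotated genes, 9.33% compared with 5.76% to 8.37% in the other 5 libraries. The part of RNA quality in this difference was not tested.

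Markers of the main myeloid populations did not move together. Median log2 fold changes were -0.051 for resident-like macrophage, -0.12 for monocyte, 0.068 for repair and lipid-associated macrophage, and -0.0062 for neutrophil genes, and 0 of the resident-like, monocyte, and neutrophil genes were outside the vehicle range in all treated libraries. The monocyte median was -0.47 without vehicle replicate 1, with 5 of 11 genes lower at an unadjusted *P* under 0.05, and turned to 0.027 and 0.091 without vehicle replicates 2 and 3, and the resident-like median was 0.12 without vehicle replicate 1 and -0.19 without spironolactone replicate 2. Within the repair list, *Retnla*, a gene of alternatively activated macrophages, was at 14.3, 17.3, and 12 CPM in vehicle and 18.4, 22.3, and 21.7 CPM in spironolactone libraries (log2 fold change 0.52 ± 0.14, adjusted *P* = 0.208). Neutrophil genes varied most between pools, from 806, 1079, and 5032 CPM summed in vehicle to 1444, 1642, and 3738 CPM in spironolactone libraries. Their median was 1.93 without vehicle replicate 3, and -0.49 and -0.41 without vehicle replicates 1 and 2. It was 0.20, 0.27, and -0.45 without spironolactone replicates 1, 2, and 3, respectively. Cell cycle genes had medians of 0.023 for S phase and 0.17 for G2/M, and heat shock chaperones had a median of -0.02. The S phase median ran from -0.068 without vehicle replicate 2 to 0.11 without vehicle replicate 1. The G2/M median was 0.31 without vehicle replicate 1, with 11 of 20 genes higher at an unadjusted *P* under 0.05, 0.035 without vehicle replicate 2, and 0.088 without spironolactone replicate 3. *Xist*, which is expressed from the inactive X chromosome of female cells, was at 318, 217, and 508 CPM in vehicle and 712, 380.2, and 65.3 CPM in spironolactone libraries, so that pools of the same group differed widely.

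Spironolactone was also compared directly with prednisolone. Between spironolactone and prednisolone, 395 genes (2.38%) were higher and 464 (2.79%) lower with spironolactone by the adjusted edgeR test. *Aplnr* was 1.64 ± 0.19 higher on the log2 scale with spironolactone than with prednisolone (adjusted *P* = 0.000579), *Col15a1* 0.91 ± 0.11 (adjusted *P* = 0.000617), and *LOC118568479* 2.25 ± 0.27 (adjusted *P* = 0.000617). In all, 9 of 19 endothelial, 7 of 15 lymphocyte and NK cell, 6 of 10 MHC class II, and 4 of 6 erythroid genes were called higher with spironolactone than with prednisolone, and 0 of these lists' genes were called lower. In the same contrast, 9 of 20 G2/M genes and 6 of 20 S phase genes were called lower with spironolactone and 0 higher. Against vehicle, the median log2 fold change of G2/M genes was 0.69 with prednisolone and 0.17 with spironolactone. That of S phase genes was 0.43 and 0.023, respectively. With prednisolone, 12 G2/M and 2 S phase genes were called higher than with vehicle, and 0 lower. Of 17 basement membrane genes, *Col4a1*, *Col15a1*, and *Pxdn* were called higher and *Col18a1* and *Lamc1* lower with spironolactone than with prednisolone, and of 9 pericyte and smooth muscle genes, *Rgs5* and *Mcam* higher and *Cspg4* lower. Only *Mb* of 17 skeletal muscle fiber genes, *Fmod* of 19 fibrillar collagen and matrix genes, and 0 of 12 fibro-adipogenic progenitor genes were called, with both named genes higher. *Fn1* and *Hif1a* were lower with spironolactone than with prednisolone by -1.12 ± 0.16 and -0.81 ± 0.11 on the log2 scale (adjusted *P* = 0.00254 and 0.00189). Against vehicle, the median log2 fold change with prednisolone was 0.092 for endothelial, -0.13 for MHC class II, -0.56 for lymphocyte and NK cell, and -0.77 for erythroid genes, and it was 0.57 for *Fn1* and 0.40 for *Hif1a* (adjusted *P* = 0.0922 and 0.0905). *Malt1* was also lower with spironolactone than with prednisolone (-0.59 ± 0.10, adjusted *P* = 0.00704).

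Several inflammatory genes did not pass the test between the drugs, or were lower with prednisolone. *Ccl4* was 0.77 ± 0.11 higher with spironolactone than with prednisolone (adjusted *P* = 0.00254), *Jun* 0.84 ± 0.16 higher (adjusted *P* = 0.0125), *Atf3* 0.63 ± 0.15 higher (adjusted *P* = 0.0352), and *Cd274* 0.45 ± 0.11 higher (adjusted *P* = 0.0343). *Thbs1* differed by -0.43 ± 0.13 (adjusted *P* = 0.0677), *Fos* by 0.11 ± 0.14 (adjusted *P* = 0.71), *Klf6* by -0.03 ± 0.11 (adjusted *P* = 0.913), and *Vegfa* by 0.095 ± 0.21 (adjusted *P* = 0.845), none of which passed the threshold. These contrasts share the spironolactone libraries with the comparison against vehicle, so that a library that stands apart enters both.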

How the data were processed

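RNA from sorted CD45+CD11b+ quadriceps cells was sequenced in 9 libraries, 3 each for vehicle, spironolactone, and prednisolone. The deposited counts were made by the authors, who aligned reads to mm39 and counted them per gene; HISAT2 2.2.1, HTSeq 0.11.3, and DESeq2 1.32.0 are listed in the submitters' processing notes. The annotation release and the strand setting are not given in the sources used here. Of 126 named genes found in GENCODE vM39 (GRCm39, the same assembly as mm39), 80 overlap a gene on the other strand, so that their reads may be shared. The deposited tables of the authors' DESeq2 comparisons, with fold changes and *P* values, were not used. Lines that name no gene held 18.9% to 21.8% of the reads or pairs counted in the 6 libraries and were left out.

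Genes were filtered with filterByExpr (minimum count 10, minimum total 15), normalized by TMM (factors 0.980 to 1.03), and fitted with edgeR 4.0.16 in R 4.3.3 (glmQLFit, robust=TRUE) on all 9 libraries. Its quasi-likelihood test was two-sided, and *P* values were adjusted over the 16618 genes by the Benjamini-Hochberg method, with a threshold of 0.05. Alternatives were DESeq2 1.42.0, voom of limma 3.58.1, other samples, normalizations, filters, and covariates, and the fits without each library. The biological coefficient of variation was 0.170, and chi-square per degree of freedom between libraries of 1 group was 18.6 to 57.8, above sampling error. A gene at 1 CPM has about 31 to 33 counts in a library, so that counting error matters for the lowest genes only.

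Named genes are those past the threshold, the 10 in each direction with the smallest *P* values among those with a difference of 0.5 or more on the log2 scale and no overlap between groups, the genes the study names for spironolactone, up to 4 members of each list with the smallest *P* values, and members that define a cell type. Members named only within a count, and *Ccl11* and *Cxcl9*, were named after their values were seen. The study chose its named genes on these samples, so they are no independent evidence of direction. Of these 23 genes, DESeq2 on 9 libraries called 10 higher and 12 lower, whereas the adjusted edgeR test called 0. The comparison and the lists were chosen with earlier results of these data known. A marker list of another cell type and a list of kinases are not reported here. A group not overlapping means that every treated library lay outside the vehicle range. Summed list levels use all members in the files, tested or not. *P* values measure the spread between pools of mice, and the labels and methods do not say that the pools differ in anything but the mice.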

Additional observations from a re-analysis of the deposited data

How the results depend on the processing

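The number of genes that differed (3 with edgeR on all libraries) depended on the test and on the filter. DESeq2 gave 266 genes on 9 libraries, 293 with the filter of edgeR (chosen after seeing the data), and 239 on the 6 vehicle and spironolactone libraries, and edgeR without a filter beyond 1 count gave 528 (325 higher, 203 lower), whereas limma-voom, robust=FALSE, and the *Xist* covariate each gave 0, with 1587, 1553, and 1408 genes at an unadjusted *P* under 0.05. RLE, upper quartile, library totals, and a minimum of 10 counts in every library gave 3 to 4 genes, and edgeR on the 6 libraries gave 4, all lower (*Ifrd1*, *Vegfa*, *Cxcl1*, and *Thbs1*) and none of the genes called with 9 libraries. Upper quartile scaling moved genes at an unadjusted *P* under 0.05 from 866 higher and 677 lower to 1028 and 470. Leaving out each library gave from 0 (without vehicle replicate 3, spironolactone replicate 3, or prednisolone replicate 2, with 1487, 1118, and 1413 genes at an unadjusted *P* under 0.05) to 34 genes (without spironolactone replicate 2). Counts were 13 without vehicle replicate 1, 6 without vehicle replicate 2, 7 without spironolactone replicate 1, 1 without prednisolone replicate 1, and 19 without prednisolone replicate 3. The cause of these shifts was not tested. Of 131 named genes recomputed, *Lamc1*, *Xist*, *Col18a1*, and *Prg2* changed direction. *Lamc1*, *Xist*, and *Col18a1* had no adjusted *P* under 0.05 against vehicle in any of these fits. For *Prg2*, the smallest adjusted *P* over the alternative fits was 9.95e-07, whereas it was 0.58 or more in the edgeR fits without 1 library. *Lamc1* had a log2 fold change of 0.000274 on 6 libraries, 0.0287 with upper quartile scaling, 0.000729 without a filter, 0.00429 with 10 counts in every library, 0.0161 with the *Xist* covariate, and from -0.13 to 0.0722 without 1 library. *Xist* was at -0.33 with limma-voom, -0.11 with a replicate block, -0.000159 with itself as the covariate, and from -0.64 to 0.65 without 1 library, *Col18a1* from -0.10 to 0.24, and *Prg2* from -2.52 to 2.27 (without vehicle replicate 3).

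Replicate numbers are not stated to pair the libraries. Same-numbered vehicle and spironolactone libraries had correlations of deviations of 0.117, 0.00484, and 0.151. Those of differently numbered libraries ran from -0.168 to 0.0393. Whether the numbers pair the pools was not tested. The fit with a replicate block called 8 genes (6 higher, 2 lower), including the 3 above. List medians moved by more than the spread between replicates in 10 of 630 list and setting combinations tried. Among these, lymphocyte and NK cell genes had a median log2 fold change of 0.66 without spironolactone replicate 3, eosinophil, mast cell, and basophil genes 1.26 without vehicle replicate 3, and corticosteroid targets -0.42 without vehicle replicate 2. Medians near 0 had no stable sign without 1 library: heat shock chaperones ran from -0.079 (without spironolactone replicate 3) to 0.061 (without spironolactone replicate 1), and repair macrophage genes from -0.0061 (without spironolactone replicate 1) to 0.12 (without spironolactone replicate 2). Depth limits *Gja5*, *Efna1*, *Ccl11*, *Ncr1*, *Cd79a*, and *Nr3c2*, which had under 100 counts in all vehicle libraries together.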
